A study of Macaca fascicularis and Macaca mulatta and Papio anubis with 20 samples.

Results

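Genes named for their part in the response of sensory neurons to axon injury were followed here: ATF3, GAL, GAP43, SOX11 and SPRR1A. They were chosen by symbol, as 5 genes among the 22000 features counted in M. fascicularis, 20842 in sections labelled M. mulatta and 21369 in sections labelled P. anubis. The M. fascicularis features carried 1 of these symbols, GAP43. The sections labelled M. mulatta carried ATF3, GAP43, SOX11 and SPRR1A, and those labelled P. anubis carried ATF3, GAL, GAP43 and SOX11. GAP43 was thus the only member measured in every section, and most of the values are its own.

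The dorsal root ganglion holds the cell bodies of sensory neurons, whose axons run to skin, muscle and viscera in one direction and to the spinal cord in the other. When the peripheral axon is cut, these neurons switch on a growth programme. ATF3 is the stress-induced transcription factor most often used to mark an injured sensory neuron, and SOX11 is a developmental transcription factor that is re-expressed during regrowth. SPRR1A is a small cytoskeleton-associated protein, nearly absent from intact neurons, that favours axon outgrowth. GAL encodes galanin, a neuropeptide that rises after nerve injury and is also made by some intact sensory neurons. GAP43 is a membrane phosphoprotein of growth cones, which uninjured adult sensory neurons, above all those with unmyelinated fibres, also make.

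The sections were fresh frozen ganglia, cut at 10 µm and spaced 100 µm apart, measured by Visium. The tissue is laid on a slide of barcoded spots that capture its RNA, and molecular barcodes (UMIs) keep copies of one transcript from being counted again. One spot can cover several cells, also of unlike types. Of 20 sections, 16 were M. fascicularis: a female and a male title code in batch 1 and another female and another male in batch 2, with 4 sections each. Another 2 sections were labelled M. mulatta and 2 P. anubis, all in batch 2 and without a sex. The labels name neither an injury, a treatment nor an age in any group, so all sections are described as ganglia with no stated injury. Each title code was taken as 1 specimen, although the labels do not say whether its sections share an animal. For section 3 of the male of batch 2 only the summed gene table was used. Identifiers in the sections labelled M. mulatta carry the Ensembl prefix of P. anubis and the reverse, so these labels and files may be crossed.

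UMI totals under tissue ran from 1136433 to 7073134 in M. fascicularis, were 190376 and 264661 in the sections labelled M. mulatta, and were 595020 and 12595205 in those labelled P. anubis. Neuron genes were present throughout. The neuron list (STMN2, TUBB3, THY1, SNAP25, neurofilaments and others) took between 1.89% and 3.54% of UMIs in M. fascicularis sections. It took 1.47% and 0.647% in the sections labelled M. mulatta, where fibroblast genes reached 11987 and 22157 CPM (UMIs of a gene scaled to a total of 1000000). Spots outside the tissue held between 1.92% and 17.9% of a M. fascicularis section's UMIs, and GAP43 there lay between 197 and 541 CPM.

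ATF3, SOX11 and SPRR1A were at or near 0 in nearly every section that could show them, and GAL was measured only in sections labelled P. anubis. In the 2 sections labelled M. mulatta, ATF3, SOX11 and SPRR1A each had 0 UMIs. A count of 0 there allows up to 15.8 CPM in section 1 and 11.3 CPM in section 2 (3 counts of the total), which is a loose limit at this depth. SPRR1B and SPRR2A, relatives of SPRR1A in the same protein family, also had 0 UMIs in both. In the sections labelled P. anubis, SOX11 had 1 UMI in section 1 and 0 in section 2. The latter allows up to 0.238 CPM, the tightest limit for any member.

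ATF3 was detected in both sections labelled P. anubis, with 3 UMIs in section 1 and 139 UMIs in section 2. These are 5.04 CPM (exact 95% Poisson interval 1.04 to 14.7) and 11 CPM (9.28 to 13), and the intervals, which cover counting error only, overlap. The transcripts were unevenly spread in section 2. A single spot held 22 of the 139 UMIs, or 15.8%, and another held 10. The level without the first was 9.31 CPM. Both spots belonged to the neuron-rich 25% of spots, with 4.82% and 6.24% of their UMIs in neuron genes, and each had 6 GAP43 UMIs and 0 GAL UMIs. Most other spots with ATF3 had a single UMI (78 of 91). Of the 91 spots, 38 were neuron-rich. These 91 spots were also deeper than the rest, with a median of 8064 UMIs against 1706, and the part of depth was not tested. ATF3 off the tissue stood at 20 CPM in section 2 (7.33 to 43.5, from 6 UMIs), so its CPM under the tissue did not exceed that off it.

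GAL reached 72.3 CPM (52.3 to 97.3, 43 UMIs) in section 1 labelled P. anubis and 85.9 CPM (80.9 to 91.2, 1082 UMIs) in section 2. Off the tissue it stood at 24.1 CPM (0.609 to 134) and 33.3 CPM (16 to 61.2), so in section 2 the intervals under and off the tissue did not overlap. GAL was patchy in section 2: of its 1081 UMIs in spots of at least 200 UMIs, 183 lay in 10 spots, and 52 spots held 5 or more. The authors' deposited table gave GAL a Moran's I of 0.127 in section 2, with an adjusted p listed as 0. Moran's I scores how alike neighbouring spots are, and 1.75% of the genes of that section scored higher. In the shallower section 1 the deposited Moran's I of GAL was 0.0136 with an adjusted p of 0.284. ATF3 in section 2 had a deposited Moran's I of 0.0156 and an adjusted p of 0.0475, with 22.3% of genes above it. The share of all genes with a deposited adjusted p under 0.05 was 14.1% in the sections labelled P. anubis.

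GAL was higher in spots rich in peptidergic nociceptor genes, while its place along the neuron list depended on the filament genes. Spots were split into 4 equal bins by their share of neuron-list UMIs, and GAL pooled over both sections was at 65.8, 133, 149 and 40.7 CPM from the lowest bin to the highest. This shape was that of section 2 (51.9, 132, 152 and 41.1 CPM). Section 1 fell from bin to bin (176, 155, 42.5 and 16.4 CPM), on 12, 14, 4 and 2 UMIs. With the neurofilament genes and PRPH taken out of the neuron list the pooled bins stood at 40.7, 70.3, 102 and 83.4 CPM, so the low level in the top bin was nearly gone. In the 25% of spots with the highest share of nociceptor genes (TAC1, CALCA, SCN11A and others), again pooled, GAL stood at 208 CPM against 29.1 CPM in the remaining spots. In the 25% with the highest share of A-fibre genes (PVALB, SPP1 and others, of large myelinated sensory neurons) it stood at 30.7 CPM against 115. By Pearson correlation over the spots of section 2, the genes most like GAL were TAC1, the precursor of substance P (r = 0.39), SCG2, a secretory granule protein (r = 0.39), and CALCB, a calcitonin gene-related peptide (r = 0.30). LXN (r = 0.29) and STMN1, a microtubule regulator (r = 0.27), followed. All of these are from 1 section, and spots share their library and depth.

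GAL and GAP43 overlapped in part. In section 2, 418 spots held GAL and 907 held GAP43, and 315 held both, which is 75.4% of the first and 34.7% of the second. Of all 2642 spots under tissue there, 34.4% held GAP43. The part of spot depth in this overlap was not tested. The Spearman correlation of GAL with GAP43 over 2532 spots was 0.323. The correlation of ATF3 with GAL was 0.0696 and that of ATF3 with GAP43 0.116, both too weak in counts this sparse to read as a relation. GAL stood at 94.3 CPM in spots with an ATF3 UMI and 85.3 CPM in spots with none. GAP43 stood at 306 and 206 CPM in the same spots.

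**Figure D1:**
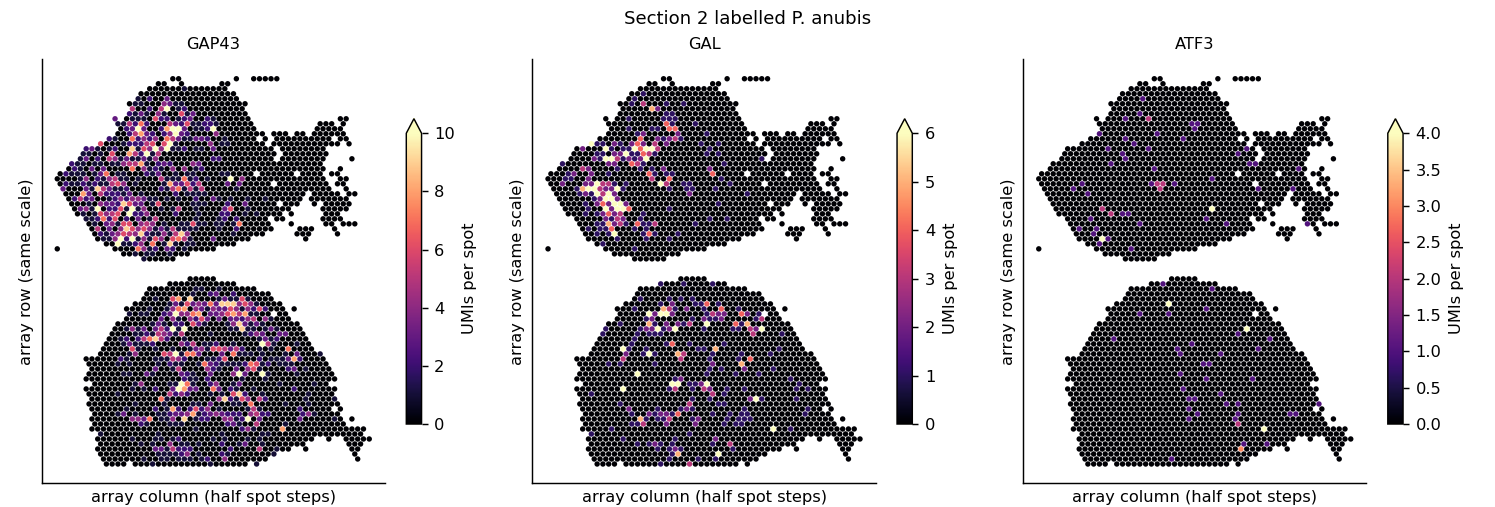
Spots of section 2 labelled P. anubis, placed by array column and row and coloured by UMIs of GAP43, GAL and ATF3 per spot (the scale stops at 10, 6 and 4). GAP43 and GAL fall in patches inside both tissue pieces, with GAL brightest in a small area of the upper piece, while 91 scattered spots hold ATF3.

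The galanin receptors were scarcely detected. GALR1 had 1 UMI in the female M. fascicularis specimen of batch 1, 2 in that of batch 2 and 0 in both males, and it had 1 in section 2 labelled P. anubis. GALR2 had 0 in every section where it was listed. GALR3 had 18 UMIs (1.43 CPM) in section 2 labelled P. anubis, 3 in section 1 and 1 in section 2 labelled M. mulatta. In section 2 labelled P. anubis its deposited Moran's I was -0.00409, with an adjusted p of 0.983 in the authors' deposited table.

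GAP43 was present in all 20 sections, and in M. fascicularis it ran from 273 to 517 CPM. Its sum over the 16 sections was 21782 UMIs. In the female of batch 1 the 4 sections stood at 329.9, 315, 273 and 314 CPM, a mean of 308 ± 24.4 (SD, n = 4). In the male of batch 1 they stood at 409, 304, 391 and 369 CPM, a mean of 368 ± 45.9 (SD, n = 4). The female of batch 2 had 301, 321, 323 and 331 CPM, a mean of 319 ± 12.8 (SD, n = 4). The male of batch 2 had 517, 422, 387 and 386 CPM, a mean of 428 ± 61.6 (SD, n = 4). In order of level the specimens ran female batch 1, female batch 2, male batch 1 and male batch 2, and each neighbour's sections overlapped the next. Off the tissue GAP43 made up a similar part of the UMIs: its CPM was higher there than under the tissue in 10 of the 15 sections with a matrix, among them all 8 of batch 1, and in section 3 of the female of batch 1 (355 CPM, 309 to 407, off the tissue) the intervals were apart. In 0 of the 15 did the level under the tissue stand above that off it with intervals apart. Spots off the tissue held 1.18% to 17.9% of a section's GAP43 UMIs.

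In the sections labelled P. anubis GAP43 stood at 166 CPM (135 to 203) and 213 CPM (205 to 221), both below every M. fascicularis section. With CPM taken over the 13102 genes named in all 3 feature sets alone, they stood at 302 and 394, against 414 to 794 in M. fascicularis. Per 1000 UMIs of the neuron genes shared by the 3 sets they had 9.37 and 8.13 GAP43 UMIs, against 10.6 to 27.9. With 1 title code for that label, and with gene models that differ between the feature sets, species and specimen cannot be told apart and no test was made. The sections labelled M. mulatta had 86 and 31 GAP43 UMIs, 452 CPM (361 to 558) and 117 CPM (79.6 to 166). Off the tissue they stood at 616 CPM (449 to 824) and 238 CPM (109 to 452), so there too the CPM under the tissue did not exceed that off it, and 34.4% and 22.5% of the GAP43 UMIs lay off the tissue.

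**Figure D2:**
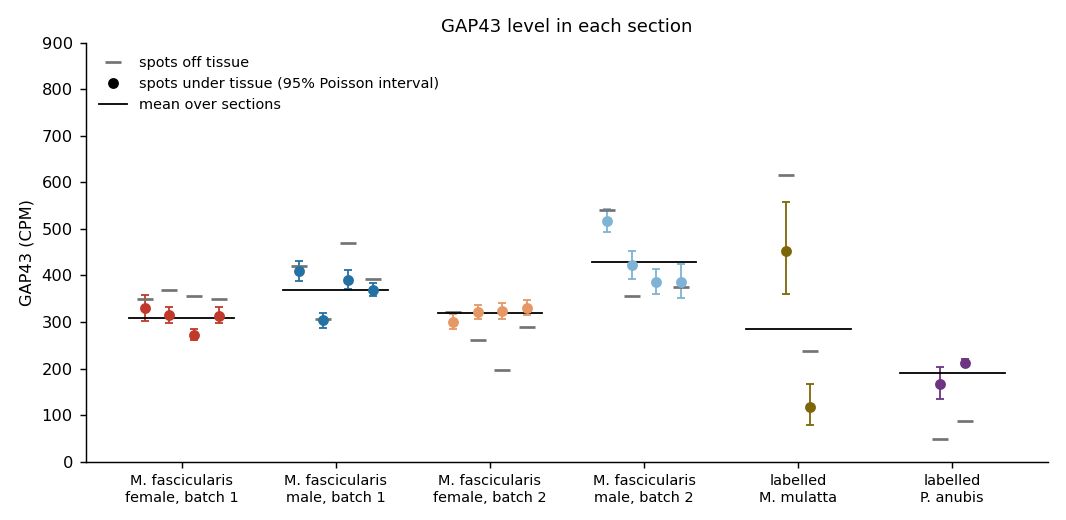
GAP43 in each section (points, CPM under tissue with exact 95% Poisson intervals), the mean over the sections of a group (black lines) and the level in spots off the tissue (grey dashes), by group. M. fascicularis sections lie between 273 and 517 CPM, and both sections labelled P. anubis lie below them at 166 and 213 CPM.

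The study's groups allow a comparison of the sexes and of the batches in M. fascicularis. GAP43 lay between 273 and 331 CPM in the 8 female sections and between 304 and 517 in the 8 male ones, and 7 of the 8 male sections stood above the highest female one. Sections of one specimen are not independent, and with 4 specimens the difference did not pass. Specimen sums gave 299 CPM in the female and 364 in the male of batch 1, and 319.6 and 446 in batch 2. The male was thus higher within each batch. An exact permutation test (two-sided, 4 specimens) gave p = 0.333, the smallest p this design allows. In the edgeR quasi-likelihood fit over 12650 genes, the female minus male difference of GAP43 was -0.31 on the log2 scale (SE 0.22, adjusted p = 0.998). That fit called 0% of genes higher and 0% lower in females, with 169 genes at an unadjusted p under 0.05, and DESeq2 also called 0 genes. With 4 specimens, 0 calls do not show that the sexes are alike.

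The same fit was made within kinds of spot, an alternative added after the data were seen. Among spots weighted towards A-fibre genes, the female minus male difference of GAP43 was -0.48 (edgeR adjusted p = 1.00). In spots weighted towards nociceptor genes it was 0.01 (edgeR adjusted p = 1.00), and the difference between these values was not tested. The A-fibre list stood between 636 and 1294 CPM in the male of batch 2 and between 1366 and 4060 CPM in the other specimens. In bulk sums, fewer cells of a type and less RNA per cell cannot be told apart, and the part of neuron composition in the difference was not tested.

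Between batches, GAP43 differed by 0.31 on the log2 scale (batch 2 minus batch 1, SE 0.22, edgeR adjusted p = 0.509). That comparison called 1.26% of genes higher and 1.61% lower in batch 2. The batches hold different specimens and were made with different Space Ranger versions, so these cannot be told apart. Of the 364 genes called, the count was 942 without section 4 of the female of batch 1, 674 without its section 1 and 564 without section 1 of the female of batch 2. It was 115 and 120 without sections 1 and 2 of the male of batch 2. When the 16 sections were entered as separate samples the GAP43 difference was 0.25 (edgeR adjusted p = 0.0237), a value that treats sections of 1 specimen as independent. Of 51 other regeneration genes, 33 were tested, 3 were higher in batch 2 and 0 lower. These were ECEL1, an injury-induced endopeptidase (log2 difference 1.95, SE 0.37), CSF1, a cytokine that injured sensory neurons release (1.83, SE 0.38), and GADD45A, a DNA-damage and stress gene (1.40, SE 0.29). Their edgeR adjusted p lay at 0.0383, 0.0494 and 0.0493, close to the threshold, and 0 of the list passed without section 1 or without section 2 of the male of batch 2. The list's median difference was 0.26 against -0.01 over all genes tested.

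In the sexes' comparison 0 of the 33 regeneration genes passed in edgeR or DESeq2, and 2 had an unadjusted p under 0.05. Immediate early genes, which switch on within minutes of stimulation or tissue handling, had 0 of 11 tested past the threshold in either comparison by edgeR and by DESeq2, with 3 in the batch comparison and 0 in that of the sexes at an unadjusted p under 0.05. Their summed level was 2794 CPM in section 1 of the female of batch 1 and lay between 295 and 1355 CPM in the other M. fascicularis sections.

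Within sections, GAP43 was spatially ordered. By the authors' deposited table its Moran's I passed an adjusted p of 0.05 in 14 of 16 M. fascicularis sections, against 16.2% of all gene and section pairs. The deposited Moran's I of GAP43 ran from 0.00970 to 0.300, with a median of 0.109. The highest was section 2 of the female of batch 1, and sections 2 and 4 of the male of batch 2 did not pass (0.00970, adjusted p = 0.969, and 0.0229, adjusted p = 0.340). In 13 sections GAP43 stood in the top 5% of genes by deposited Moran's I. In section 2 labelled P. anubis it scored 0.175, with 0.835% of genes above it. Section 1 labelled P. anubis (0.0119, adjusted p = 0.527) and both sections labelled M. mulatta (0.0152 and -0.00259, adjusted p = 0.330 and 0.998) did not pass in the authors' deposited table, where 3.04% of pairs labelled M. mulatta did.

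**Figure D3:**
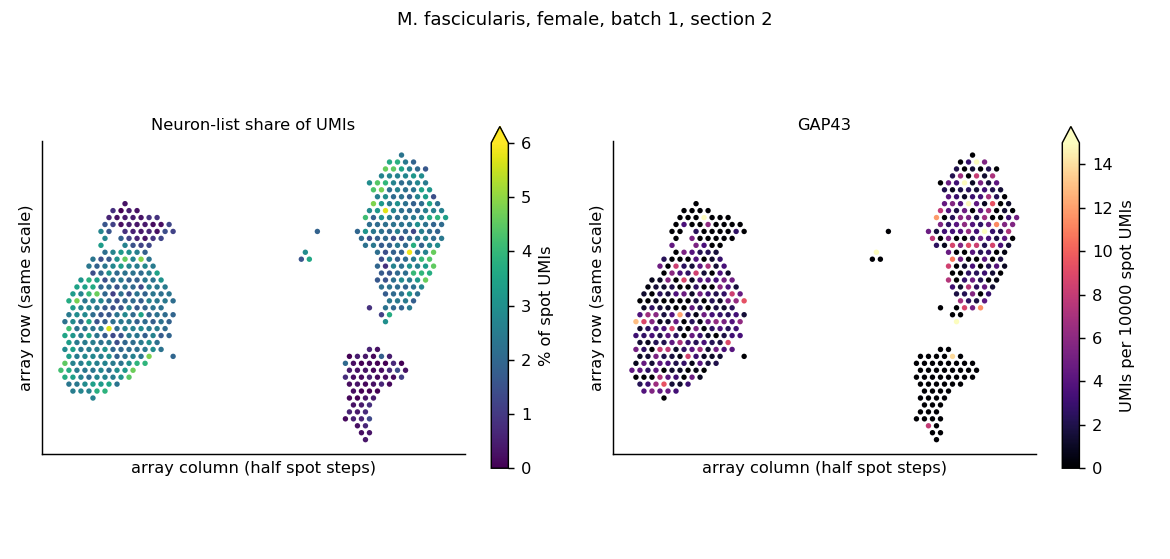
Spots of section 2 of the female M. fascicularis of batch 1, placed by array column and row, coloured by the share of UMIs in neuron genes (left) and by GAP43 UMIs per 10000 spot UMIs (right). The region of low neuron share at the bottom holds almost no GAP43, and the section has the highest deposited Moran's I, 0.300.

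In 3 of the 4 M. fascicularis specimens GAP43 was lowest in spots with the fewest neuron genes. In all 4 it had its highest mean in the third of 4 bins and was lower in the spots richest in neuron genes. Spots under tissue with at least 200 UMIs were used, 18594 in the 15 M. fascicularis sections with a matrix. Over 4 bins of rising neuron-list share, the female of batch 1 had mean levels of 121, 345, 377 and 269 CPM. The male of batch 1 had 158, 403, 449 and 319 CPM, and the female of batch 2 had 130.3, 305, 419 and 277 CPM. The male of batch 2 was flatter, with 410.4, 473, 483 and 384 CPM, and its lowest mean was in the neuron-richest bin. By distance from the closest neuron-rich spot, GAP43 was higher 1 and 2 steps away than in the neuron-rich spots in all 4 specimens. In the female of batch 2, neuron-rich spots had 278 CPM, their immediate neighbours 378, spots a further step away 409.9, and spots 3 or more steps away 167. In batch 1 the highest mean was at the immediate neighbours, with 269, 357, 348 and 202 CPM in the female and 319, 443, 425 and 207 in the male. The male of batch 2 had 383, 463, 498 and 390.5 CPM, so its farthest spots were not below its neuron-rich ones.

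**Figure D4:**
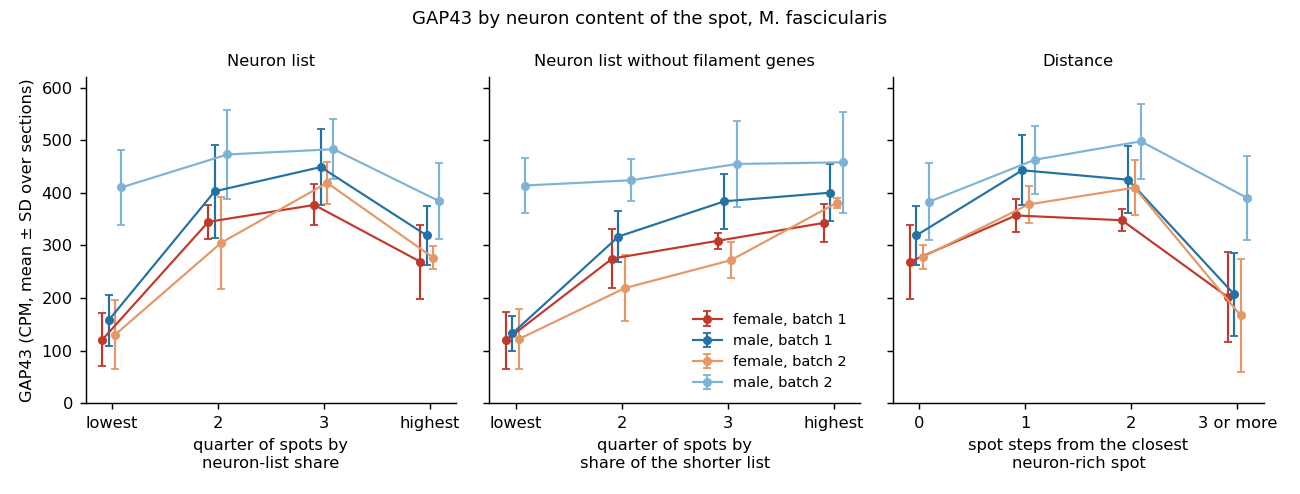
GAP43 (mean CPM over sections, bars ± SD) in the 4 M. fascicularis specimens in 4 equal bins of spots ordered by neuron-list share (left), by the same list without filament genes (middle) and by distance in spot steps from the closest neuron-rich spot (right). On the left the highest bin lies below the third in all 4 specimens, and in the middle panel it does not.

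The test of neuron-rich against other spots gave a drop. Over the 4 specimens, GAP43 stood at 308 ± 70.1 CPM (SD, n = 4) in the neuron-rich 25% of spots and at 403 ± 64.3 CPM (SD, n = 4) elsewhere. In the edgeR fit with the specimen as a block the log2 difference was -0.32 (SE 0.06, adjusted p = 5.90e-04). It was lower in 14 of 15 sections, the exception being in the female of batch 1, and sections ran from -0.93 to 0.18. That comparison called 20.1% of genes higher and 21.8% lower in neuron-rich spots, so a call is common here. The direction turned when the neurofilament genes and PRPH were taken out of the list that ranks the spots: the difference was then 0.35 (edgeR adjusted p = 0.00121). NEFL and NEFH made up 31.3% and 23.6% of the neuron-list UMIs in neuron-rich spots. An alternative kept only spots of at least 500 UMIs, thinned them to 500 and took the neuron-rich 25% anew among them. There GAP43 no longer passed, at -0.24 (edgeR adjusted p = 0.147).

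Shares of spots with a GAP43 UMI depended on depth. Thinned to 500 UMIs, 11% ± 3.33 (SD, n = 4) of neuron-rich spots held GAP43 in the female of batch 1, against 11.9% ± 2.34 of other spots and 4.21% ± 1.46 of the lowest bin. Unthinned, these were 63.1%, 45.6% and 14.3%. Neuron-rich spots were the deeper ones in that specimen, with section medians of 2906 to 11493 UMIs against 938 to 5220. In the male of batch 2 the thinned shares were 16.5% ± 3.31 (SD, n = 3), 20.3% ± 6.30 and 19.3% ± 2.15, so there the lowest bin was no lower than the rest.

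Within neuron-rich spots GAP43 differed between those weighted towards nociceptor genes and those weighted towards A-fibre genes. Each neuron-rich spot was called nociceptor-weighted where it held more UMIs of nociceptor than of A-fibre genes, and A-fibre-weighted in the reverse case: 1279 and 2885 spots. A few genes carried this split. In neuron-rich spots SPP1 and PVALB held 78.3% and 20.7% of the A-fibre-list UMIs, and TAC1 and CALCA 42.5% and 24.1% of the nociceptor-list UMIs. Members of these lists were left out of the test, and GAP43 is in neither. GAP43 stood at 458, 517, 500.3 and 474 CPM in the nociceptor-weighted spots of the female and male of batch 1 and the female and male of batch 2. In the A-fibre-weighted spots of the same specimens it stood at 173, 232, 189.7 and 317 CPM, with no overlap between the classes. The means were 487 ± 26.4 and 228 ± 64.4 CPM (SD, n = 4). The edgeR fit gave a log2 difference of 1.14 (SE 0.08, adjusted p = 3.43e-13), and GAP43 was higher in nociceptor-weighted spots in 15 of 15 sections, by 0.17 to 1.60. That comparison called 10.6% of genes higher and 13.2% lower in nociceptor-weighted spots. Leaving out each specimen in turn gave 1.07 to 1.27. The ratio of the classes was smallest in the male of batch 2, at 1.49, and lay between 2.23 and 2.65 in the other specimens.

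The same held in section 2 labelled P. anubis, where no test was made with 1 title code. There GAP43 stood at 346 CPM (312 to 383) in 95 nociceptor-weighted spots and at 141 CPM (131 to 151) in 516 A-fibre-weighted spots. GAL stood at 104 CPM (85.5 to 125) and 28.2 CPM (23.9 to 33.0) in the same classes. ATF3 stood at 13.8 CPM (7.70 to 22.7) and 11.2 CPM (8.59 to 14.4), with overlapping intervals.

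GAP43 was also compared over spots rich in each gene list. In the 25% of spots with the highest share of nociceptor genes it was higher than in the other spots in 15 of 15 sections, by a median log2 ratio of 0.69 over specimens (range 0.16 to 0.87). In the 25% richest in genes of repair and non-myelinating Schwann cells (NGFR, L1CAM and others), the median was also 0.69 (0.15 to 0.92), again in 15 of 15 sections. Of this list NGFR and L1CAM, which held 62.7% and 33.3% of its UMIs in neuron-rich spots, are also made by sensory neurons, so the list does not separate these cells. The medians were -1.05 for A-fibre genes, -0.87 for myelinating Schwann genes (PRX, PMP22 and others), -0.86 for fibroblast genes and -0.81 for smooth muscle genes. Satellite glia (-0.04) and immune genes (-0.06) lay near 0. The male of batch 2 had the ratio closest to 0 for the nociceptor, A-fibre, fibroblast and myelinating Schwann lists.

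**Figure D5:**
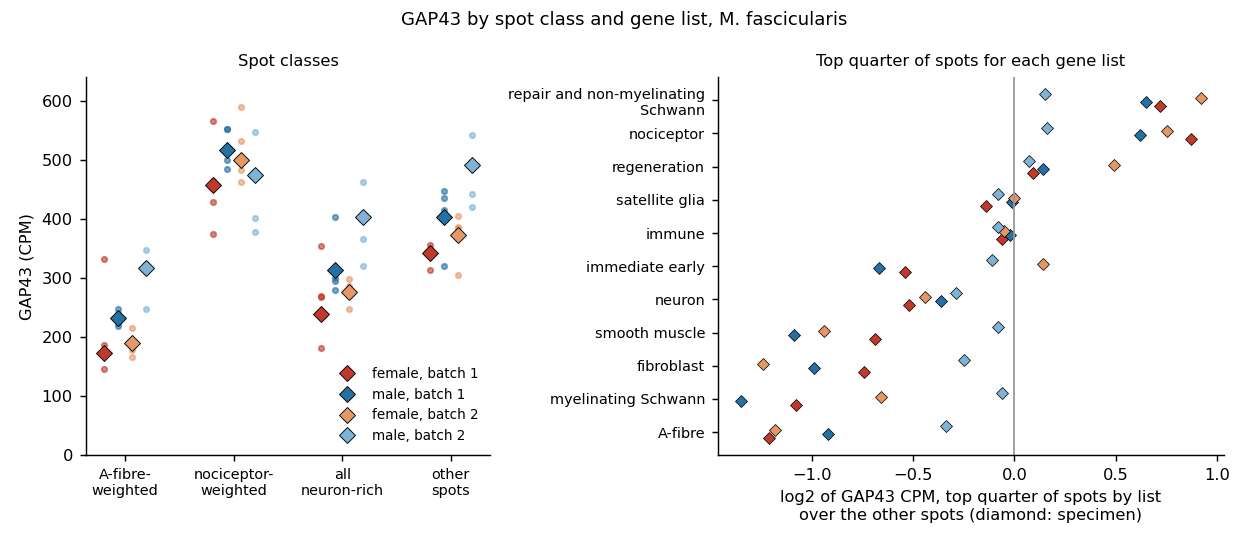
GAP43 in M. fascicularis by spot class (left, CPM, small points are sections and diamonds specimens) and as the log2 ratio of its CPM in the 25% of spots richest in each gene list over the other spots (right, diamonds are specimens). Nociceptor-weighted spots lie at 458 to 517 CPM and A-fibre-weighted spots at 173 to 317 CPM, and the nociceptor list lies right of 0 in all 4 specimens.

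As correlations, the lists did not keep the order of these ratios. As a Spearman correlation over spots within a section, a description only since spots share a library and depth, GAP43 had a median over 15 sections of 0.28 with the neuron list (0.09 to 0.45). With the nociceptor list the median was 0.40 (0.07 to 0.47), with A-fibre genes 0.12 and with fibroblast genes -0.34. The values with the neuron and A-fibre lists were positive although CPM was lower in the spots richest in either. With the neuron list it was 0.06 over spots of at least 1000 UMIs. Within neuron-rich spots alone, the medians were 0.30 with NGFR, a neurotrophin receptor, and 0.29 with PRPH, the filament of small neurons. They were -0.28 with NEFL, -0.23 with NEFH and -0.11 with SPP1.

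Over all spots of the 15 sections, the genes most like GAP43 among 7473 ranked were CALCB (mean r = 0.34, 0.10 to 0.48) and SCG3, a secretory granule protein (0.31). HTR3A, a serotonin-gated ion channel of sensory neurons, OLFM1, a secreted neuronal glycoprotein, and PRPH followed, each at 0.31. CALCB also led in section 2 labelled P. anubis (r = 0.48), ahead of LXN (0.42) and STMN1 (0.42).

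Other regeneration genes were split between the spot classes. Of 25 tested in nociceptor-weighted against A-fibre-weighted spots, 10 were higher and 3 lower, against 10.6% and 13.2% of all genes tested. The counts were 6 and 2 without the female of batch 2, 7 and 1 without the male of batch 1, 7 and 3 without the female of batch 1, and 7 and 2 by DESeq2. They fell to 3 and 1 of 17 tested with 10% of spots as neuron-rich, and to 1 and 0 of 12 with spots thinned to 500 UMIs. Without the specimen block they were 0 and 0 of 21. ECEL1 rose most (log2 difference 1.97, SE 0.29), then STMN4, a neuronal stathmin (1.22, SE 0.12), DPYSL3, a collapsin response mediator (0.85, SE 0.11), and SMAD1, a transducer of BMP signals (0.83, SE 0.15). The edgeR adjusted p of these was between 1.86e-09 and 5.05e-05. GADD45A (-0.72, SE 0.13), CRMP1, another collapsin response mediator (-0.35, SE 0.10), and TIMP1, a metalloproteinase inhibitor (-0.29, SE 0.07), fell. The median over the list was 0.22 against 0.00 over all genes tested. Immediate early genes included 4 of 10 higher (DNAJB1, FOS, MYC and DUSP1, 0.67, 0.55, 0.42 and 0.24) and 0 lower by edgeR. That count fell to 1 by DESeq2, to 1 without the female of batch 1, to 2 without the male of batch 1 or the female of batch 2, and to 0 of 9 with sections as samples and the section number as a block.

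In neuron-rich against other spots the regeneration list leaned the other way, with 2 of 32 higher and 13 lower in edgeR and a median of -0.20 against -0.04 over all genes. Of all genes tested 20.1% were higher and 21.8% lower. The 13 became 8 without the female of batch 1, 4 with spots thinned to 500 UMIs and 0 without the specimen block. CRMP1 (0.75, SE 0.08) and GADD45A (0.64, SE 0.15) were higher. TIMP1 (-0.76, SE 0.11) and IL6, an inflammatory cytokine (-0.74, SE 0.23), were among those that fell. So were SMAD1 (-0.67, SE 0.10), KLF7 (-0.55, SE 0.10), STMN4 (-0.42, SE 0.07), DPYSL3 (-0.32, SE 0.08) and CHL1 (-0.26, SE 0.09). Non-neuronal cells also make TIMP1 and IL6, while STMN4 is a neuronal stathmin, and the part of cell mix was not tested. Over whole sections IL6 had 464 UMIs in the male of batch 2, against 9, 20 and 4 in the other specimens. Immediate early genes had 8 of 11 lower and 0 higher, led by KLF4 (-0.90), EGR2 (-0.81), NR4A2 (-0.80) and FOS (-0.71). With the list that lacks filament genes, 6 regeneration genes were higher and 8 lower. Without the female of batch 1, whose section 1 had the highest immediate early level, 7 of 10 immediate early genes were lower. With spots thinned to 500 UMIs 8 of 10 were lower, and without the specimen block 0 of 10.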

How the data were processed

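UMI counts per gene and spot were deposited by the authors for 19 sections, and per gene for all 20. Space Ranger 2.0.0 made 12 matrices and Space Ranger 2.1.0 made 7, per the file headers, and the submitters' processing notes name the build Mmul_10. Moran's I scores, p-values and adjusted p-values are the authors' deposited values and were only described. Spots under tissue with at least 200 UMIs entered the spot results. In each section the 25% of spots with the highest share of neuron-list UMIs were called neuron-rich. Count sums per specimen were tested with edgeR 4.0.16 (quasi-likelihood, TMM, filterByExpr, Benjamini-Hochberg over all genes tested, called at an adjusted p under 0.05), in R 4.3.3. SEs are the log2 difference over the root of the F statistic. The test was also run on simulated data with the same dispersion for every gene and no specimen differences in the effect. That run does not show how the test fares where specimens differ. Other steps used Python 3.11.15 and scipy 1.17.1. Alternatives were DESeq2 1.42.0, other normalizations, filters, thresholds, spot lists and left-out sections or specimens. P-values of the batch and sex fits rest on 4 specimen sums, with variance estimates that borrow from other genes. Those of the spot-class fits, with the specimen as a block, also rest on variance estimates that borrow from other genes. They do not measure the spread of GAP43 across the 4 specimens alone. Its nociceptor-weighted over A-fibre-weighted log2 ratios there were 1.41, 1.16, 1.40 and 0.58. Those with sections as samples do not measure the spread between specimens. The members and gene lists were chosen with earlier results of these data known. Named genes are every member, the 5 genes most like GAP43 in M. fascicularis among those with at least 500 UMIs, up to 4 called genes per direction from the regeneration and immediate early lists, and the galanin receptors. A few genes that this rule names are not reported here. The genes most like GAL, and those like GAP43 in section 2 labelled P. anubis, were added after the data were seen. In M. fascicularis, sections differed beyond counting noise in every pair within a specimen (lowest chi-square per degree of freedom 3.93), so each counted as its own library. Arrays print the same barcodes (4976 in all 20 sections), so shared barcodes are not shared spots. The Poisson intervals cover counting error only and leave out the differences between sections.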

Additional observations from a re-analysis of the deposited data

How the results depend on the processing

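The difference of GAP43 between nociceptor-weighted and A-fibre-weighted spots kept its direction and its call under all 12 alternatives (log2 difference 0.73 to 1.42). The drop of GAP43 in neuron-rich spots turned to 0.35 with the list without filament genes, and was -0.24 with thinning and -0.32 without the specimen block, neither past the threshold. In the sexes' comparison GAP43 turned to 0.01 in nociceptor-weighted spots alone, and with sections as samples the batch difference of GAP43 passed at 0.25. The causes were not tested.

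Counts of called genes moved more. The batch comparison's 364 became 1279 with no filter, 4345 with sections as samples and 191 in nociceptor-weighted spots, and ran from 115 to 942 with 1 section left out. The sexes' 0 became 67 with no filter and 8 with sections as samples. Neuron-rich spots' 5063 became 3317 by DESeq2, 1776 with thinning and 177 without the block. Nociceptor-weighted spots' 2417 became 1231 by DESeq2, 791 with 10% of spots, 200 with thinning, 122 without the block, and 1536 to 2456 with 1 specimen left out, the lowest without the male of batch 1. The median correlation of GAP43 with the neuron list was 0.06 with at least 1000 UMIs per spot, and 9 sections passed with Moran's I also at least 0.1.

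Over the 4 specimens section numbers did not pair the sections (mean correlation of same-numbered deviations 0.07, and 2 of 16 sections correlated best with their own number). Within batch 1 the 4 same-numbered pairs correlated at 0.22 to 0.47. There sections 1 and 2 of one specimen also went with 1 and 2 of the other, and 3 and 4 with 3 and 4 (0.22 to 0.57, against -0.58 to -0.17 across). Batch 1 alone, an alternative added after the data were seen, called 0 genes between the sexes by edgeR with sections as samples, both with the section number as a replicate block (652 genes at an unadjusted p under 0.05, GAP43 at -0.25) and without it (354, GAP43 at -0.26). With that block over all 16 sections as samples, the batch comparison called 4448 genes with GAP43 at 0.26, and that of the sexes 5. In the spot comparisons that block changed no call of GAP43 (-0.31 and 1.13). Depth limits ATF3, SOX11 and SPRR1A in the sections labelled M. mulatta, where the limits stand above the level of ATF3 found elsewhere.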
